A study of Mus musculus with 20 samples.

Results

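The collagen genes encode the chains of the structural proteins of the extracellular matrix, and they were followed here through 6 treatment groups of a mouse ovarian tumour. A gene was counted as a collagen gene when its symbol in the deposited RPKM table was Col, a number, the letter a and a number. The rule reads no measured value, but it was written with earlier results of these data known. By that rule 44 of 22417 symbols were collagen genes: 11 fibrillar chains, 6 chains of collagen IV of basement membranes, 9 FACITs (fibril-associated collagens with interrupted triple helices), 6 chains of collagen VI, 3 chains of network-forming collagens VIII and X, and 9 of other types. In the count table of 55406 genes, 18144 had enough reads to be tested, and 38 of the 44 collagen genes were among them. The 6 that were not tested were Col25a1, Col2a1, Col9a2, Col26a1, Col19a1 and Col9a1, with 95, 78, 41, 12, 5 and 2 reads over all 20 libraries.

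The tumours came from ID8 Trp53-/-Brca1-/- cells, a derivative of the ID8 mouse ovarian surface epithelial cancer line that lacks both tumour suppressors and carries luciferase, placed in the peritoneal cavity of female C57/BL6 mice. All 6 groups share this cell line and host. Control mice (3 libraries) were untreated. Olaparib, an inhibitor of PARP enzymes (PARPi), was given by mouth at 40 mg/kg/day to 3 mice. Immune checkpoint blockade (ICB) was 100 µg of antibody to CTLA-4 with 200.0 µg of antibody to PD-L1, injected into the peritoneal cavity (3 libraries). PARPi+ICB had 3 libraries. PARPi+anti-VEGFA, with 20.0 µg of an antibody to the vessel growth factor VEGFA, had 4. All drugs together, PARPi+ICB+anti-VEGFA, had 4 and are named the full combination from here on. The age of the mice and the location of each sampled tumour are not given in the sources used here. RNA was taken from frozen bulk tumour, so a lower level cannot be told apart between fewer cells of a type and less RNA per cell. The sample titles name a mouse with a replicate number in each group, and nothing else states that replicates are separate animals, so the p-values measure the spread between these samples.

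A collagen molecule is built of chains wound around each other, which are hydroxylated and folded in the endoplasmic reticulum, trimmed outside the cell and then crosslinked by lysyl oxidases. Fibrillar collagens I, III and V form the fibres that fibroblasts lay down in stroma, FACITs decorate those fibres, and collagen VI forms beaded filaments between fibres and cells. Collagen IV is the sheet-forming collagen of the basement membranes under epithelium, mesothelium and vessels, and collagens VIII and X form hexagonal networks. In ovarian cancer the stroma of peritoneal deposits is a known source of fibrillar collagen.

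Libraries held 26.9 M to 34.7 M counts. Markers of the ID8 epithelial and mesothelial lineage (8 genes) summed to 1922 to 2833 CPM (counts scaled to a common library total) and were present in every library. RNA of pancreatic acinar cells stood above a mean of 2 log2 CPM in 4 libraries: ICB replicate 3, PARPi+anti-VEGFA replicates 1 and 4, and full combination replicate 2. Without those 4 libraries the number of collagen genes called was 4 for ICB, 15 for PARPi+ICB, 16 for PARPi+anti-VEGFA and 16 for the full combination. Over all 18144 genes tested, that fit called 358, 3122, 2459 and 3769. Rn7sk, Lars2 and Mir6236, 3 RNAs whose level can reflect library quality, had a mean log2 CPM between 4.47 and 4.82 in the controls. It lay between 2.98 and 4.31 in PARPi libraries, 2.73 and 3.07 in ICB libraries, 2.94 and 3.52 in PARPi+ICB libraries, 2.71 and 2.82 in PARPi+anti-VEGFA libraries, and 2.96 and 4.63 in libraries of the full combination. With that mean as a further term in the fit, a setting chosen after seeing the data, all 62 calls of a collagen gene in a comparison kept their direction, 42 were at least as large on the log2 scale, and 22 remained called. The number of collagen genes called was then 0 for ICB, 7 for PARPi+ICB, 0 for PARPi+anti-VEGFA and 13 for the full combination. With PARPi+ICB these were Col6a2, Col5a2, Col6a5, Col8a1, Col8a2, Col4a5 and Col4a6. In the full combination they were the same 7 with Col1a1, Col1a2, Col3a1, Col5a1, Col6a1 and Col20a1. Over all genes, that setting called 0, 632, 0 and 2481 in these comparisons. In all treated groups but the full combination, PARPi alone included, these RNAs did not overlap the controls, so there the treatment and what these RNAs mark cannot be told apart.

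Levels of different genes were compared as CPM per kilobase of summed exons. Collagen III led: Col3a1, its only chain, had 172 ± 40.5 CPM per kb (SD over the 20 libraries). Col4a1 followed at 102 ± 12.8, Col1a1 at 93.0 ± 21.2, Col6a1 at 90.6 ± 20.99, Col4a2 at 73.7 ± 9.46 and Col1a2 at 61.3 ± 14.8 CPM per kb. These SDs include the differences between groups. They do not separate the neighbours Col4a1, Col1a1 and Col6a1, nor Col4a2 and Col1a2, but the order changed between libraries. Col4a1 stood above Col1a1 in every control (112, 110 and 105 against 77.4, 56.7 and 70.0) and below it in PARPi+ICB replicate 3 (79.2 against 107). Col4a2 stood above Col1a2 in every control, PARPi and ICB library and below it in PARPi+anti-VEGFA replicate 3 (64.6 against 75.7). Another 9 members, from Col6a2 at 40.6 to Col4a6 at 15.7, stood above 10 CPM per kb, and 18 of the 44 stood below 1.

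By class, the fibrillar chains made up 44.0% of the summed collagen level, collagen IV 24.7%, collagen VI 17.9%, the other types 5.87%, the network chains 3.94% and the FACITs 3.59% (means of 20 libraries). The fibrillar share was 38.2% ± 1.86 in controls (SD, n = 3), 40.4% ± 1.02 with PARPi, 41.2% ± 4.24 with ICB, 46.9% ± 0.577 with PARPi+ICB, and 47.4% in both groups given anti-VEGFA (SD 4.36 with PARPi+anti-VEGFA and 2.56 in the full combination, n = 4 each). The collagen IV share was 30.8% ± 0.526 in controls, 28.6% ± 0.282 with PARPi, where every library stood below the controls, 27.2% ± 3.50 with ICB, and 20.6% ± 2.56, 22.7% ± 2.85 and 20.6% ± 1.36 in PARPi+ICB, PARPi+anti-VEGFA and the full combination. So fibrillar chains held a larger part and collagen IV a smaller part of collagen RNA in these 3 combinations, by more than the SD within groups. The total also rose, from 762 CPM per kb in controls to 914, 959 and 943, so part of the smaller share is a larger total. The collagen IV sum was 235 (222 to 248) in controls and 188 (167 to 218), 217 (189 to 251) and 195 (158 to 224) in the combinations. The fibrillar sum was 291 in controls against 429, 456 and 447. On the deposited RPKM, which divides by the whole gene span with introns, collagen IV held 6.90% and fibrillar chains 62.2%, so the sizes of these shares depend on the length used.

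**Figure D1:**
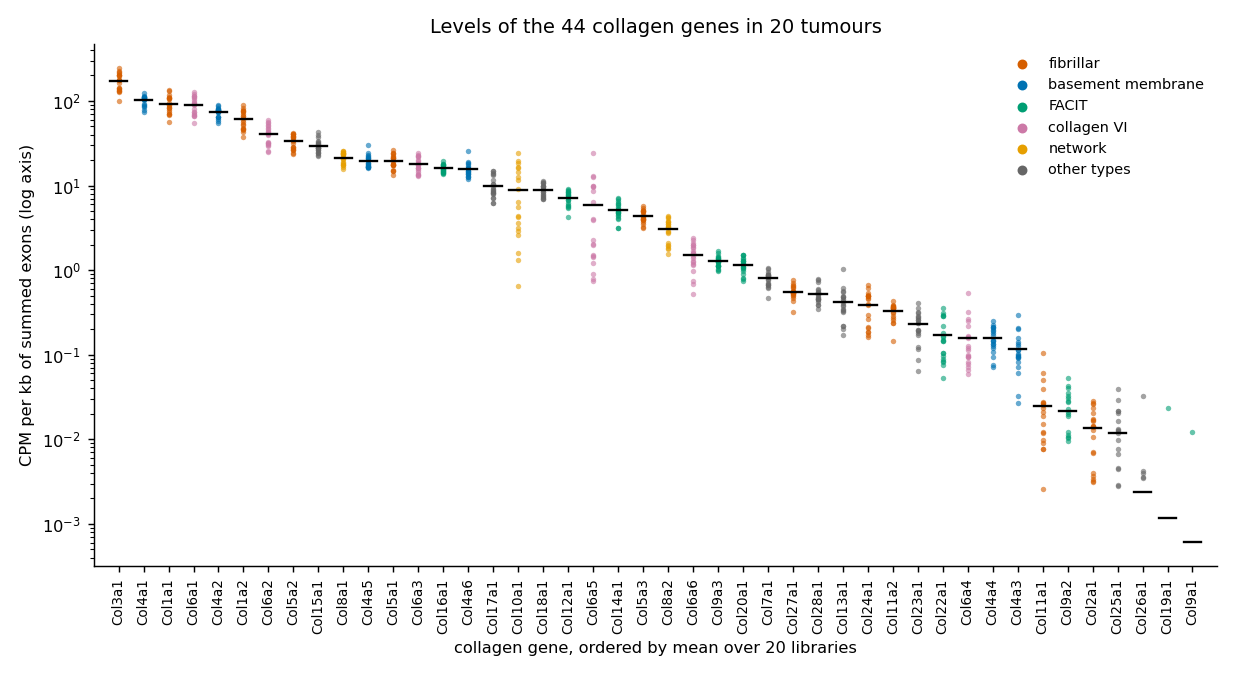
Level of each collagen gene in the 20 libraries, in CPM per kb of summed exons on a log axis, with 1 point per library, a black line at the mean and members coloured by class. Col3a1 at 172 and Col4a1 at 102 CPM per kb lead. Libraries at 0 are not drawn.

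For 3 pairs of chains that assemble into one molecule, the ratio varied less than the genes' own levels. Col1a1 over Col1a2, the chains of collagen I, was 1.52 per kb, with an SD of the log2 ratio of 0.09 over 20 libraries against 0.33 and 0.35 for each gene's own level. Col4a1 over Col4a2, the chains of the common collagen IV, was 1.38, with an SD of the log2 ratio of 0.04 against 0.19 for each gene. Col6a1 over Col6a2 was 2.25, with 0.09 against 0.35 and 0.39. This last ratio was higher in the controls, at 2.41 to 2.62, than in every treated library, of which the highest stood at 2.34. Col1a1 over Col1a2 was 1.36 to 1.46 with PARPi+ICB, below the 1.50 to 1.65 of the controls. The long chain of collagen VI went the other way: Col6a3 over Col6a1 had an SD of the log2 ratio of 0.44, against 0.29 and 0.35 for each gene. That ratio was 0.259 in controls, 0.281 with PARPi, 0.218 with ICB, 0.137 with PARPi+ICB, 0.204 with PARPi+anti-VEGFA and 0.148 in the full combination. A steadier ratio was also not particular to partners: Col3a1 over Col1a1, chains of different collagens, had 0.18 against 0.35 and 0.33. Col3a1 over Col4a1 was 1.23 in controls, 1.29 with PARPi and 1.26 with ICB, against 2.14, 1.99 and 2.14 in the 3 combinations. These ratios share the depth of each library and are given as descriptions.

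Differences between groups were tested with edgeR's quasi-likelihood test on the deposited counts, with a Benjamini-Hochberg adjusted p under 0.05 over all 18144 genes as a call. All comparisons with control share the same 3 control libraries. The lost calls named below for single genes are chiefly those without any one library. Some calls were also lost under other settings of the fit, which are described with the processing. PARPi alone called 0 of 38 collagen genes, against 0.0661% of all genes tested. DESeq2 also called 0, against 349 of all genes. At an unadjusted p under 0.05 there were 3 higher (Col24a1, Col11a2 and Col23a1) and 2 lower (Col4a5 and Col4a6), named after their values were seen. Over all 18144 genes, 1255 were higher and 810 lower at that limit, so these counts are near the share of all genes. ICB alone called 5 of 38, against 2.2% of all genes: the collagen VIII chains Col8a1 and Col8a2 were higher (1.23% of all genes), and Col14a1, Col4a5 and Col4a6 were lower (0.976%). Without any one control or ICB library, 2 or 3 were called, against 80 to 327 of all genes. No ICB library overlapped the controls for 6 genes that stood above them and 3 below, against 11.7% and 10.4% of all genes.

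The 3 combinations called more. PARPi+ICB called 12 collagen genes higher and 3 lower of 38, against 9.58% of all genes higher and 6.52% lower. PARPi+anti-VEGFA called 13 higher and 5 lower, against 9.99% and 7.8%. The full combination called 14 higher and 4 lower, against 12.6% and 11.5%. In either direction, 15, 18 and 18 of 38 were called, beside 16.1%, 17.8% and 24.2% of all genes. Without control replicate 2 the full combination called 11, against 2971 of all genes, and without PARPi+ICB replicate 3 that group called 9, against 1349. Of the collagen genes, 11 were higher in all 3 combinations, namely Col1a1, Col1a2, Col3a1, Col5a2, Col11a2, Col24a1, Col6a1, Col6a2, Col8a1, Col8a2 and Col20a1. Col4a5 and Col4a6 were lower in all 3, another 4 were higher and 4 lower in some of them, and 17 were called in none. In PARPi+ICB, 13 collagen genes had all libraries above and 5 all below the controls, against 17.5% and 17.2% of all genes. In PARPi+anti-VEGFA these were 12 and 5, against 14.2% and 12.9%, and in the full combination 13 and 4, against 14.9% and 14.6%. The shares standing below were near or under those of all genes. The test for any difference among the 6 groups called 18 of 38, against 20.7% of all genes.

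**Figure D2:**
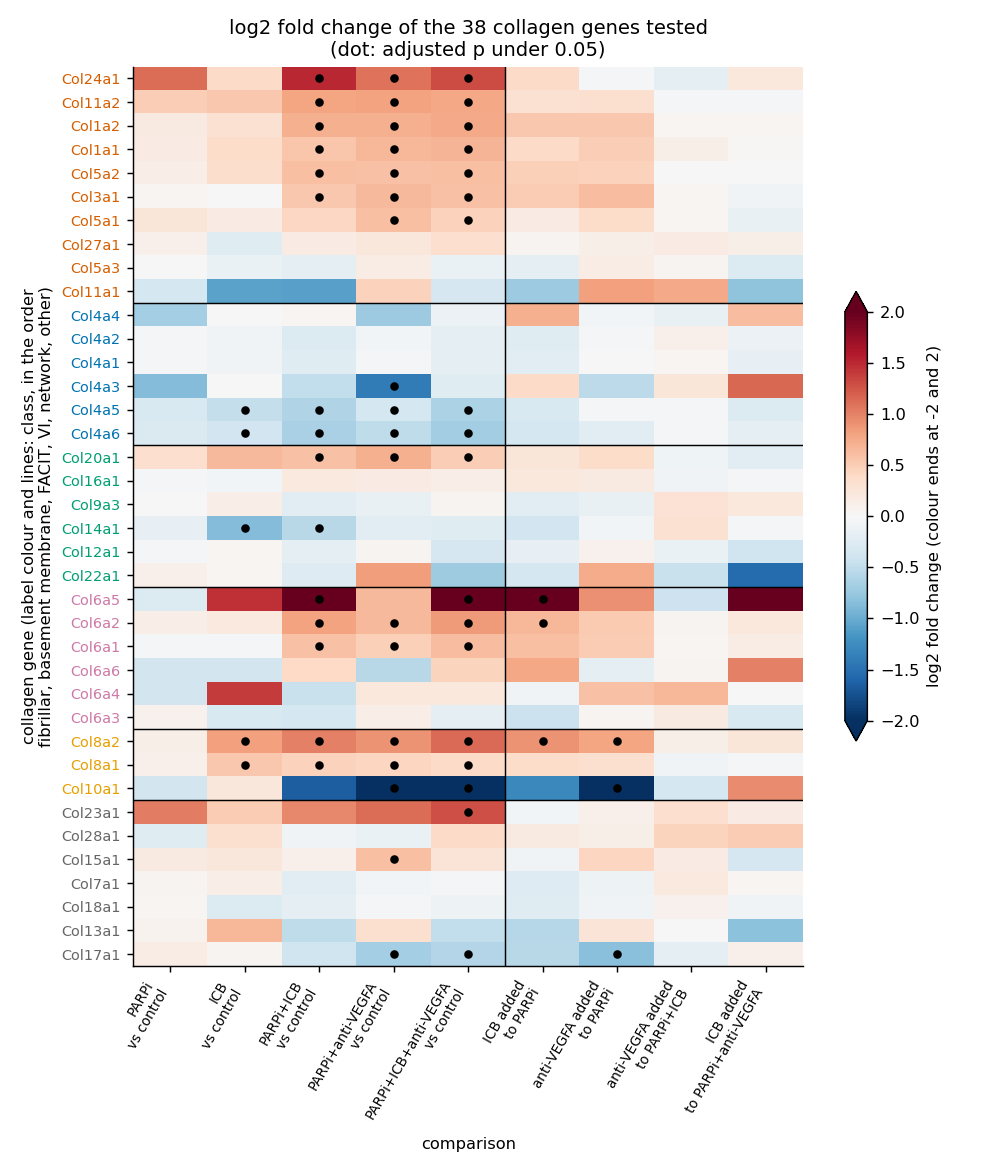
Colour map of the log2 fold change of each tested collagen gene (rows, by class) in 9 comparisons (columns) from the edgeR fit, red for higher and blue for lower, with a dot where the adjusted p was under 0.05. In the 3 combinations 12, 13 and 14 genes are called higher, and Col4a5 and Col4a6 are lower in each.

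Fibrillar chains, the class with the most tested genes, also had the most calls by number. Of 10 tested, 6 were higher with PARPi+ICB, 7 with PARPi+anti-VEGFA and 7 in the full combination, and 0 were lower. The median log2 fold change of the 10 was 0.54, 0.62 and 0.59, against -0.02 over all genes in each comparison. Col3a1 is shown first because it was the most abundant collagen gene. It lies on mouse chromosome 1 (chr1:45311538-45349706, plus strand, GRCm38). The RefSeq sequence just before its start (chr1:45311288-45311537, GRCm38.p6) holds 1 TATAAA motif, in capitals, 117 bases before the start. The motifs searched on both strands were the CCAAT box, the GC box GGGCGG and the TATA motif TATAAA. On the other strand they read ATTGG for the first, CCGCCC for the second and TTTATA for the last.
Col3a1: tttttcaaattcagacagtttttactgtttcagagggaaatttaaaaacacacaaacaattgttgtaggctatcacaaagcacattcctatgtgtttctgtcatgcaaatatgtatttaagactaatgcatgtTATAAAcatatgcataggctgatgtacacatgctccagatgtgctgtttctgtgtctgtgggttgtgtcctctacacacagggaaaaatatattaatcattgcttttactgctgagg

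Over all 32851 RefSeq windows of up to 250 bases before a start, 33.8% held CCAAT, 32.7% GGGCGG and 12.4% TATAAA. The 38 windows of the 35 collagen genes that matched by symbol held them in 34.2%, 57.9% and 13.2%. A match is a description of letters, not a binding site. Each window printed here ends at the more upstream of the RefSeq and GENCODE starts, and the genes shown were chosen after their values were seen.

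Col3a1 had 1381, 1301 and 1273 CPM in controls, 1387, 1346 and 1317 with PARPi, and 1264, 967 and 1751 with ICB. It had 1759, 1992 and 1985 CPM with PARPi+ICB, 1603, 2426, 2145 and 2078 with PARPi+anti-VEGFA, and 1969.6, 2231, 1738 and 1935 in the full combination. All 11 libraries of the combinations stood above all 3 controls, while the ICB libraries spread from below to above them. The log2 fold change was 0.54 ± 0.16 with PARPi+ICB (adjusted p = 0.031), 0.65 ± 0.15 with PARPi+anti-VEGFA (adjusted p = 0.00809) and 0.58 ± 0.15 in the full combination (adjusted p = 0.0113, edgeR, ± standard error). The PARPi+ICB call was lost without any one of the 3 controls or without PARPi+ICB replicate 2 or 3.

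Col1a1 and Col1a2, the chains of collagen I, the main fibre protein of connective tissue, followed. Col1a1 had 508, 372 and 459.7 CPM in controls, 554, 489 and 459 with PARPi, and 588, 449 and 691 with ICB. It had 538, 723 and 703 CPM with PARPi+ICB, 545, 849, 719.8 and 708 with PARPi+anti-VEGFA, and 615, 877, 594 and 767 in the full combination. Every combination library was above every control, with the first replicates of PARPi+ICB and PARPi+anti-VEGFA the closest to control replicate 1. Its log2 fold change was 0.55 ± 0.18, 0.66 ± 0.17 and 0.68 ± 0.17 in the 3 combinations (edgeR adjusted p = 0.0482, 0.0145 and 0.00957). Without control replicate 2, the lowest control, none of these was called. The PARPi+ICB call was also lost when control replicate 3, or replicate 2 or 3 of its own group, was left out. That call was lost as well with the replicate block and with each of the 3 limma fits.

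Col1a2 had 584, 469 and 562 CPM in controls, 658, 588 and 578 with PARPi, and 643, 530.5 and 815 with ICB. It had 747, 939 and 960.0 CPM with PARPi+ICB, 697, 1017, 940.1 and 872 with PARPi+anti-VEGFA, and 785, 1110.2, 819 and 925 in the full combination. The combinations again lay above the controls without overlap, and ICB replicate 3 stood among them. Against control the log2 fold change came to 0.71 ± 0.16, 0.71 ± 0.15 and 0.76 ± 0.15 (edgeR adjusted p = 0.00644, 0.00462 and 0.00217).

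Col5a2, a chain of collagen V, which sits inside collagen I fibres and limits their width, had 253, 229 and 233 CPM in controls, 271, 251 and 259 with PARPi, and 274, 268 and 371 with ICB. It had 327, 401 and 361 CPM with PARPi+ICB, 320.3, 391, 372 and 355 with PARPi+anti-VEGFA, and 307, 395, 350.4 and 392 in the full combination. Here too no combination library overlapped the controls. This gave a log2 fold change of 0.61 ± 0.12, 0.59 ± 0.11 and 0.60 ± 0.11 (edgeR adjusted p = 0.00213, 0.00195 and 0.00108). Its partner Col5a1 was called with PARPi+anti-VEGFA (0.60 ± 0.14) and in the full combination (0.45 ± 0.14). The latter call was lost without control replicate 2 or 3, without full combination replicate 2 or 4 and without the 4 libraries with acinar RNA. It was lost as well with the replicate block, the groups compared alone and limma on log2(RPKM + 1).

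Among the scarce fibrillar chains, Col11a2 rose by 0.79 ± 0.20, 0.80 ± 0.19 and 0.77 ± 0.19 on the log2 scale in the 3 combinations. Its control levels were 1.76, 1.01 and 1.62 CPM. The PARPi+ICB call was lost without control replicate 2 or PARPi+ICB replicate 3, and all 3 calls were lost with the groups compared alone. Col24a1 rose by 1.50 ± 0.38, 1.09 ± 0.36 and 1.31 ± 0.36 from control levels of 1.61, 1.31 and 1.42 CPM. The PARPi+anti-VEGFA call for Col24a1 was lost without any one control or without PARPi+anti-VEGFA replicate 3 or 4, and its call in the full combination was lost without control replicate 2. Col5a3, Col27a1 and Col11a1 were not called in any combination.

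Collagen VI chains split. Col6a1 and Col6a2 rose in all 3 combinations, Col6a5 rose where ICB was present with PARPi, and Col6a3, Col6a4 and Col6a6 were not called. The median log2 fold change of the 6 chains was 0.49, 0.34 and 0.53 in the 3 combinations, against -0.02 over all genes. Col6a1 had 309, 354 and 287 CPM in controls, 321, 289 and 322 with PARPi, and 296, 238 and 398 with ICB. It had 395, 469 and 557 CPM with PARPi+ICB, 414, 486, 451 and 407 with PARPi+anti-VEGFA, and 421, 502, 522 and 503 in the full combination. Every combination library was above every control. In the edgeR fit the log2 fold change was 0.58 ± 0.15, 0.47 ± 0.14 and 0.62 ± 0.14 (edgeR adjusted p = 0.0132, 0.0274 and 0.00447). The PARPi+ICB call was lost without control replicate 3 or PARPi+ICB replicate 3, and the PARPi+anti-VEGFA call without control replicate 1 or 3 or PARPi+anti-VEGFA replicate 2 or 3.

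Col6a2, the chain that pairs with Col6a1, had 244, 257 and 213 CPM in controls, 271, 248 and 261 with PARPi, and 262, 205 and 346 with ICB. It had 353, 390.5 and 496 CPM with PARPi+ICB, 342, 417, 399 and 333 with PARPi+anti-VEGFA, and 371, 458, 464 and 433 in the full combination. The lowest combination library, at 333 CPM, stood above the highest control, at 257. The fitted log2 fold change was 0.80 ± 0.15, 0.65 ± 0.15 and 0.86 ± 0.15 (edgeR adjusted p = 0.0022, 0.00586 and 0.000608).

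Col6a3, the long chain that completes the common collagen VI, had 273, 209 and 195 CPM in controls, 239, 220.5 and 257 with PARPi, and 171, 161 and 214 with ICB. It had 162, 208 and 159 CPM with PARPi+ICB, 268, 293, 236 and 193 with PARPi+anti-VEGFA, and 155, 193, 182 and 270.1 in the full combination. Every treated group overlapped the controls, while all PARPi libraries stood above all ICB and PARPi+ICB libraries. Against control the combinations gave log2 fold changes of -0.35 ± 0.19, 0.13 ± 0.17 and -0.17 ± 0.17 (edgeR adjusted p = 0.216, 0.644 and 0.516).

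**Figure D3:**
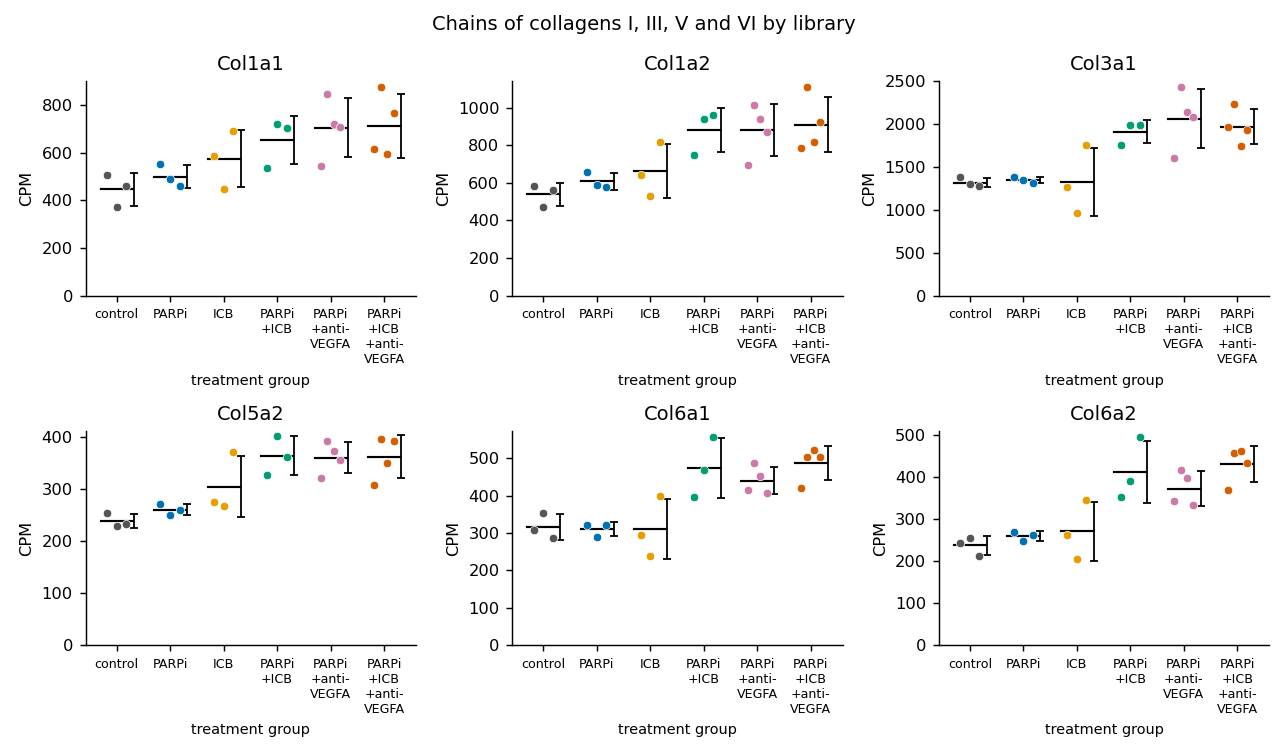
CPM in each library of Col1a1, Col1a2, Col3a1, Col5a2, Col6a1 and Col6a2 by treatment group, with 1 point per library, a line at the group mean and a bar for the SD. Control libraries of Col3a1 lie between 1273 and 1381 CPM and those of the full combination between 1738 and 2231.

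Col6a5 is an alternative long chain of collagen VI. It had the widest change of any collagen gene, and the sequence before its start is shown for that reason (chr9:105960644-105960893, minus strand, GRCm38.p6). The capitals mark 1 GGGCGG motif, 57 bases before the start.
Col6a5: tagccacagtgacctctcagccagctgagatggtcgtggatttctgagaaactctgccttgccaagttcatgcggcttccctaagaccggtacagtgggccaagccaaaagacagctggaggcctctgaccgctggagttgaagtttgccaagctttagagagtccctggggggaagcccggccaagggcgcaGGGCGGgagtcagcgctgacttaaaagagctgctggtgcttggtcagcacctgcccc

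Col6a5 had 19.1, 13.9 and 7.34 CPM in controls, 8.55, 11.4 and 13.5 with PARPi, and 37.0, 14.3 and 59.6 with ICB. It had 92.2, 93.4 and 227 CPM with PARPi+ICB, 7.07, 18.6, 37.3 and 21.6 with PARPi+anti-VEGFA, and 123, 81.1, 117 and 90.7 in the full combination. All 7 libraries given both PARPi and ICB stood at 81.1 CPM or more, above the 13 other libraries, of which the highest was ICB replicate 3. On the log2 scale the change was 3.35 ± 0.56 with PARPi+ICB (adjusted p = 0.000834) and 2.94 ± 0.54 in the full combination (adjusted p = 0.000989), against 1.46 ± 0.53 with ICB (adjusted p = 0.154) and 0.65 ± 0.50 with PARPi+anti-VEGFA (adjusted p = 0.394, all edgeR). PARPi+ICB replicate 3 was the highest library, and both calls of this group held without it. The interaction of PARPi and ICB for Col6a5 was 2.16 ± 0.74 on the log2 scale, with an edgeR adjusted p of 0.958, so a joint effect beyond the sum was not called.

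The remaining collagen VI chains were scarce. Col6a6 had 11.6, 16.8 and 13.5 CPM in controls, 8.98, 12.8 and 10.6 with PARPi, and 10.7, 6.34 and 15.3 with ICB. It had 18.4, 14.6 and 22.1 CPM with PARPi+ICB, 6.75, 11.7, 14.7 and 4.76 with PARPi+anti-VEGFA, and 17.4, 21.01, 18.3 and 19.3 in the full combination. All 4 libraries of the full combination stood above all controls and above all PARPi, ICB and PARPi+anti-VEGFA libraries, while the other treated groups overlapped the controls. Against control the full combination gave 0.45 ± 0.31 on the log2 scale (edgeR adjusted p = 0.32). Col6a4 had 0.661, 0.504 and 2.12 CPM in controls, 0.806, 1.03 and 0.699 with PARPi, and 1.38, 2.76 and 4.55 with ICB. It had 0.960, 0.618 and 0.827 CPM with PARPi+ICB, 1.41, 2.24, 0.802 and 0.567 with PARPi+anti-VEGFA, and 0.844, 1.85, 1.33 and 1.07 in the full combination. ICB replicate 3 was the highest, and every treated group overlapped the controls.

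Among collagen IV chains, Col4a5 and Col4a6 moved alike, as did Col4a1 and Col4a2, while Col4a3 was called with PARPi+anti-VEGFA and Col4a4 was not. The genes lie in head-to-head pairs that share a promoter region. The starts of Col4a5 and Col4a6 are 1308 bases apart on the X chromosome. The annotated starts of Col4a1 and Col4a2 overlap by 22 bases on mouse chromosome 8, and those of Col4a3 and Col4a4 are 71 bases apart. The part of this arrangement in the values was not tested. Of the 6, 0 were higher in any combination, and 2, 3 and 2 were lower. The median log2 fold change was -0.38, -0.43 and -0.22, against -0.02 over all genes. Col4a5 and Col4a6, the chains found together in epithelial and smooth muscle basement membranes, fell together, and the sequences before their starts are shown for that reason.
Col4a5: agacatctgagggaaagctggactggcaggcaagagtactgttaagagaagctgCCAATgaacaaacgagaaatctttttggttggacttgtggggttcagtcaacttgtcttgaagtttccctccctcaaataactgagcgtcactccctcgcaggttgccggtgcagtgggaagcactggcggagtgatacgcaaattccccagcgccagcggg
Col4a6: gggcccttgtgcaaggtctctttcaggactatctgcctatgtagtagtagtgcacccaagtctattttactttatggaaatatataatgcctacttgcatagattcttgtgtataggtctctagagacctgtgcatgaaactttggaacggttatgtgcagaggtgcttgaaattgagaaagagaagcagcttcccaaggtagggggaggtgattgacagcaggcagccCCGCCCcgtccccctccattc

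The Col4a5 window is chrX:141475169-141475384, plus strand, and the capitals mark 1 CCAAT motif 196 bases before the RefSeq start. The Col4a6 window is chrX:141474077-141474326, minus strand, and the capitals mark 1 CCGCCC motif 21 bases before the start (both GRCm38.p6).

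Col4a5 had 203, 162 and 152 CPM in controls, 147, 138 and 134 with PARPi, and 120.0, 111 and 143 with ICB. It had 116, 113 and 111 CPM with PARPi+ICB, 125, 151, 142 and 124 with PARPi+anti-VEGFA, and 109, 110.3, 112 and 115 in the full combination. All 17 treated libraries stood below all 3 controls, by a narrow gap for PARPi+anti-VEGFA replicate 2, and control replicate 1 was the highest. The log2 fold change was -0.47 ± 0.10 with ICB, -0.61 ± 0.10 with PARPi+ICB, -0.35 ± 0.09 with PARPi+anti-VEGFA and -0.63 ± 0.09 in the full combination (edgeR adjusted p = 0.0229, 0.000847, 0.0173 and 0.000237). The ICB call was lost when control replicate 1 or 2, or replicate 1 or 2 of the ICB group, was left out. The PARPi+anti-VEGFA call was lost without control replicate 1, without PARPi+anti-VEGFA replicate 4 and without the 4 libraries with acinar RNA.

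Col4a6 had 202, 149 and 151 CPM in controls, 144, 137 and 129 with PARPi, and 129.6, 125 and 129 with ICB. It had 111, 109.7 and 101 CPM with PARPi+ICB, 117, 126, 117 and 110.4 with PARPi+anti-VEGFA, and 94.3, 101, 104 and 116 in the full combination. Every treated library, those of PARPi included, stood below the lowest control of 149 CPM. Against control the log2 fold change came to -0.29 ± 0.10 with PARPi (edgeR adjusted p = 0.225), -0.39 ± 0.10 with ICB (adjusted p = 0.0414), and -0.64 ± 0.10, -0.51 ± 0.09 and -0.69 ± 0.09 in the 3 combinations (adjusted p = 0.000393, 0.00137 and 7.77e-05). The ICB call was lost without any one of the 3 control or 3 ICB libraries.

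Col4a1, the most abundant collagen IV chain, had 833, 821 and 783 CPM in controls, 814, 786 and 778 with PARPi, and 757, 777 and 798 with ICB. It had 648, 820.0 and 591 CPM with PARPi+ICB, 861, 927, 677 and 690.0 with PARPi+anti-VEGFA, and 554, 811, 640.2 and 820.1 in the full combination. Col4a2, its partner, had 533, 538 and 496 CPM in controls, 518, 513 and 509 with PARPi, and 486, 517 and 484 with ICB. For Col4a2 the combinations gave 402, 511 and 385 CPM with PARPi+ICB, 575, 585, 428 and 425 with PARPi+anti-VEGFA, and 366, 519, 422 and 546 in the full combination. In each combination the libraries spread from within or above the control range to below it, with PARPi+ICB replicate 3 and full combination replicate 1 the lowest for both genes. In the full combination the log2 fold change was -0.20 ± 0.13 for Col4a1 and -0.17 ± 0.13 for Col4a2 (edgeR adjusted p = 0.298 and 0.381).

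Col4a3 and Col4a4, chains of the specialised basement membranes of kidney and lung, were scarce. Col4a3 had 1.13, 2.08 and 1.55 CPM in controls, 0.979, 1.03 and 0.604 with PARPi, and 0.912, 2.96 and 0.954 with ICB. It had 1.42, 0.711 and 1.26 CPM with PARPi+ICB, 0.825, 0.942, 0.328 and 0.265 with PARPi+anti-VEGFA, and 1.14, 2.00, 1.33 and 0.931 in the full combination. With PARPi+anti-VEGFA it fell by 1.39 ± 0.47 on the log2 scale (edgeR adjusted p = 0.0468), a call lost without any one control, without PARPi+anti-VEGFA replicate 3 or 4 and without the libraries with acinar RNA. Col4a4 had 1.42, 2.22 and 2.25 CPM in controls, 1.53, 1.35 and 0.795 with PARPi, and 1.57, 2.26 and 2.06 with ICB. It had 1.42, 1.92 and 2.68 CPM with PARPi+ICB, 1.80, 1.15, 0.985 and 0.756 with PARPi+anti-VEGFA, and 1.27, 2.39, 1.55 and 2.04 in the full combination, and it was not called.

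**Figure D4:**
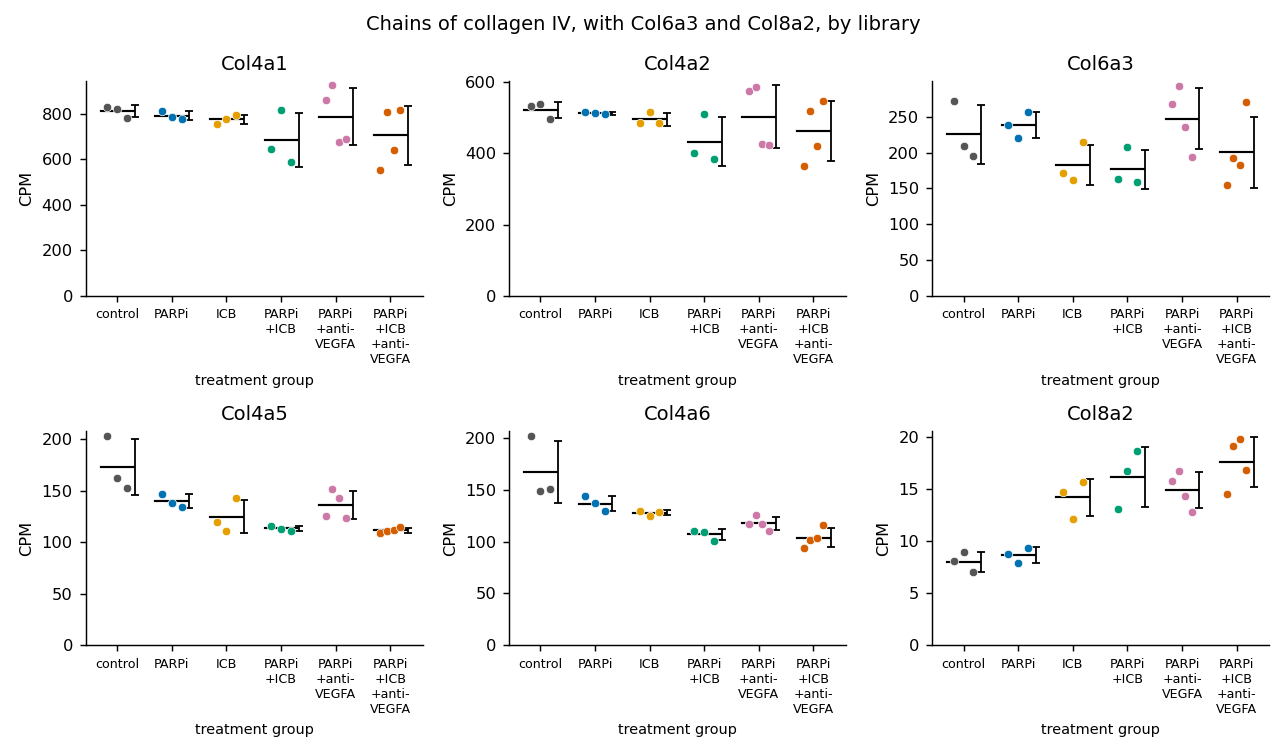
CPM in each library of Col4a1, Col4a2, Col4a5 and Col4a6, with Col6a3 and Col8a2, by treatment group, with 1 point per library, a line at the group mean and a bar for the SD. Col4a5 and Col4a6 lie below the controls in all libraries of the 3 combinations, while Col4a1 and Col4a2 overlap them.

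FACITs had few calls. Their median log2 fold change was -0.21, 0.11 and -0.09 in the 3 combinations, against -0.02 over all genes. Col16a1, the most abundant, which is found at the edge of fibrils, had 113, 97.4 and 95.6 CPM in controls, 106, 102 and 93.7 with PARPi, and 98.4, 91.7 and 105 with ICB. It had 109, 119 and 121 CPM with PARPi+ICB, 118, 131, 99.1 and 108 with PARPi+anti-VEGFA, and 102, 119, 102 and 123 in the full combination. It was not called in any comparison with control.

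Col14a1, a fibril-surface collagen of mature connective tissue, had 42.5, 41.7 and 48.3 CPM in controls, 46.3, 35.2 and 37.2 with PARPi, and 22.1, 21.9 and 28.4 with ICB. It had 31.3, 28.9 and 30.3 CPM with PARPi+ICB, 37.0, 43.2, 39.1 and 33.2 with PARPi+anti-VEGFA, and 33.7, 49.4, 33.8 and 33.0 in the full combination. The ICB and PARPi+ICB libraries all stood below the controls, while the anti-VEGFA groups reached into or above them. This gave a log2 fold change of -0.87 ± 0.15 with ICB (edgeR adjusted p = 0.0102) and -0.55 ± 0.15 with PARPi+ICB (adjusted p = 0.0175). The PARPi+ICB call was lost when control replicate 3, or replicate 2 or 3 of its own group, was left out. Col20a1 was called higher in all 3 combinations (0.59 ± 0.19, 0.71 ± 0.18 and 0.50 ± 0.18). With PARPi+ICB that call was lost without any one control, without PARPi+ICB replicate 2 or 3 and without the libraries with acinar RNA, and in the full combination without any one control, replicate 2, 3 or 4, or the libraries with acinar RNA. Col20a1 overlaps a same-strand transcript, BX649560.1, by 741 bases, so its reads are uncertain.

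Network-forming collagens went both ways, and the median of the 3 chains was 0.46, 0.42 and 0.39. Of the 3 chains, 2 were called higher in each combination, and 1 was called lower with PARPi+anti-VEGFA and in the full combination. Col8a2 and Col8a1 encode collagen VIII of vessel walls and cornea, and Col8a2 had the smallest p of any collagen gene. The sequence before its start (chr4:126286544-126286792, plus strand, GRCm38.p6) holds 4 GC boxes, in capitals, 93, 41, 19 and 15 bases before the start, of which the last pair is joined.
Col8a2: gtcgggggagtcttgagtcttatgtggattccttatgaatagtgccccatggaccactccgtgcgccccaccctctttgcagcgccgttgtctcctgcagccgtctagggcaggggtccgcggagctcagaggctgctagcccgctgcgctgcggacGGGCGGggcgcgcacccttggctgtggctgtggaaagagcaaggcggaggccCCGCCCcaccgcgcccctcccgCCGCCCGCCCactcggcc

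Col8a2 had 8.09, 9.001 and 7.04 CPM in controls, 8.75, 7.93 and 9.41 with PARPi, and 14.8, 12.2 and 15.7 with ICB. It had 13.1, 16.7 and 18.7 CPM with PARPi+ICB, 15.9, 16.7, 14.4 and 12.8 with PARPi+anti-VEGFA, and 14.6, 19.2, 19.8 and 16.9 in the full combination. All libraries given ICB or anti-VEGFA stood above all control and PARPi libraries. In the edgeR fit the log2 fold change was 0.82 ± 0.15 with ICB, 1.01 ± 0.15 with PARPi+ICB, 0.89 ± 0.14 with PARPi+anti-VEGFA and 1.13 ± 0.14 in the full combination (edgeR adjusted p = 0.0135, 0.000403, 0.000825 and 7.22e-05). The ICB call was lost without control replicate 3.

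Col8a1 had 136, 122 and 139.5 CPM in controls, 145, 131 and 149 with PARPi, and 186, 189 and 202 with ICB. It had 169, 193 and 184 CPM with PARPi+ICB, 198, 187, 163 and 160.4 with PARPi+anti-VEGFA, and 135, 189.5, 178 and 189.9 in the full combination. Only full combination replicate 1 of the 14 libraries given ICB or anti-VEGFA fell within the control range. The fitted log2 fold change was 0.54 ± 0.11 with ICB and 0.46 ± 0.11, 0.42 ± 0.10 and 0.39 ± 0.10 in the 3 combinations (edgeR adjusted p = 0.0183, 0.00823, 0.00945 and 0.0114). Without control replicate 2 the calls with ICB, PARPi+anti-VEGFA and the full combination were lost, and the ICB call was also lost without ICB replicate 2 or 3.

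Col10a1 is the collagen of hypertrophic cartilage and also a marker of some tumour stroma. The sequence before its start (chr10:34389731-34389980, plus strand, GRCm38.p6) is shown because it changed most among the genes that fell. Its capitals mark 1 TATAAA motif, 32 bases before the start.
Col10a1: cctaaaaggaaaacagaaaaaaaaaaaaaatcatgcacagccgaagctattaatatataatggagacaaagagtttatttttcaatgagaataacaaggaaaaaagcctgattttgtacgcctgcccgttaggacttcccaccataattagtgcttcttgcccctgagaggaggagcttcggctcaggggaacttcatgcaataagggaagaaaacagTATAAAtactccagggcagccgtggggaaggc

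Col10a1 had 57.0, 51.6 and 39.0 CPM in controls, 20.0, 44.8 and 50.3 with PARPi, and 60.8, 75.5 and 36.6 with ICB. It had 13.5, 28.9 and 4.93 CPM with PARPi+ICB, 8.13, 11.3, 2.04 and 4.12 with PARPi+anti-VEGFA, and 8.96, 13.1, 9.97 and 17.7 in the full combination. All 11 combination libraries stood below all 3 controls, and PARPi replicate 1 was also low. On the log2 scale the change was -1.64 ± 0.56 with PARPi+ICB (edgeR adjusted p = 0.0525, not called), -2.93 ± 0.53 with PARPi+anti-VEGFA (adjusted p = 0.00166) and -1.99 ± 0.51 in the full combination (adjusted p = 0.00981). Of the 6 cartilage markers 2 had enough reads to be tested, and of these only Comp was called higher with PARPi+ICB and in the full combination. The median log2 fold change of the 2 was 0.29 and 0.24 there. The 6 cartilage markers summed to 1.26 to 4.85 CPM over all libraries, and Matn1 was at 0 in every PARPi, PARPi+ICB and full combination library. Col10a1 lies within Nt5dc1 on the opposite strand, which had 7346 reads in all, and the strand setting of the counting is not given in the sources used here, so some of its reads may belong to Nt5dc1.

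The 7 tested genes of other types had medians of -0.20, -0.03 and -0.02 in the 3 combinations. Among them Col15a1, a multiplexin of basement membrane zones, had 169, 143 and 157 CPM in controls, 179, 177 and 175 with PARPi, and 177, 177 and 197 with ICB. It had 152, 199 and 152 CPM with PARPi+ICB, 253, 276, 215 and 206 with PARPi+anti-VEGFA, and 147, 241, 167 and 196 in the full combination. It was called with PARPi+anti-VEGFA at 0.60 ± 0.14 (edgeR adjusted p = 0.00726), where all 4 libraries stood above the controls. Col17a1, a transmembrane collagen of epithelial anchoring junctions, had 80.4, 69.8 and 62.8 CPM in controls, 88.7, 84.3 and 62.2 with PARPi, and 88.1, 82.7 and 49.6 with ICB. It had 48.3, 54.3 and 58.2 CPM with PARPi+ICB, 50.1, 51.6, 37.8 and 37.0 with PARPi+anti-VEGFA, and 43.3, 53.9, 43.3 and 49.1 in the full combination. All combination libraries stood below all controls. The log2 fold change was -0.69 ± 0.17 with PARPi+anti-VEGFA and -0.58 ± 0.17 in the full combination (edgeR adjusted p = 0.0118 and 0.0213), against -0.41 ± 0.19 with PARPi+ICB (adjusted p = 0.153). The first call was lost without control replicate 1, and the second without control replicate 1 or 2 or full combination replicate 1 or 3. Col23a1 was called in the full combination (1.29 ± 0.41), a call lost without control replicate 2 or 3, replicate 4 of its own group or the libraries with acinar RNA. Col18a1, Col7a1, Col13a1 and Col28a1 were not called in any comparison with control.

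**Figure D5:**
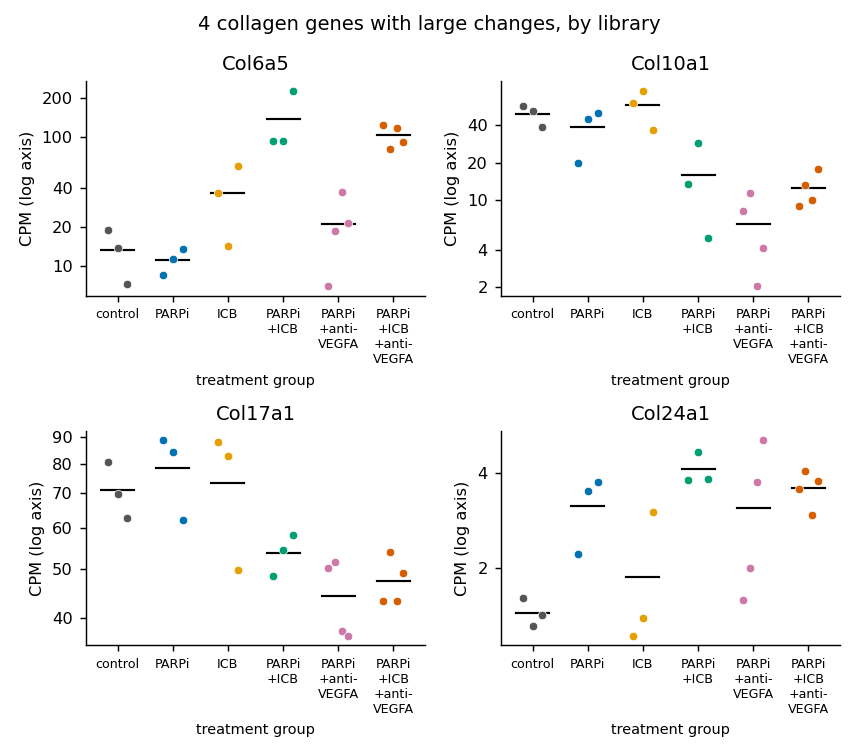
CPM in each library, on a log axis, of Col6a5, Col10a1, Col17a1 and Col24a1 by treatment group, with 1 point per library and a line at the group mean. Col6a5 is at 81.1 CPM or more only in the 7 libraries given both PARPi and ICB, and Col10a1 is lowest, at 2.04 CPM, in PARPi+anti-VEGFA replicate 3.

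Adding a drug to another asked what each contributed. ICB added to PARPi raised 3 collagen genes of 38 and lowered 0, against 0.882% and 0.38% of all genes, or 1.26% in either direction: Col6a5 by 3.62 ± 0.57, Col8a2 by 0.89 ± 0.15 and Col6a2 by 0.67 ± 0.15 on the log2 scale (edgeR adjusted p = 0.00537, 0.00933 and 0.0416). Without PARPi replicate 2 or PARPi+ICB replicate 3 only Col6a5 was called, and the Col6a2 call was also lost without PARPi replicate 1 or 3. The Col6a2 call was lost as well with the groups compared alone and with each of the 3 limma fits. Without PARPi+ICB replicate 1 there were 5 calls, without the libraries with acinar RNA 7, and DESeq2 called 10. Over all genes these settings called 250, 302 and 812, against 229 in the main fit. Without PARPi replicate 2 or PARPi+ICB replicate 3, 31 and 29 of all genes were called.

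Anti-VEGFA added to PARPi called 1 collagen gene of 38 higher and 2 lower, against 0.298% and 0.276% of all genes, or 0.573% in either direction. Col8a2 rose by 0.78 ± 0.14, Col10a1 fell by 2.57 ± 0.53 and Col17a1 fell by 0.83 ± 0.17 on the log2 scale (edgeR adjusted p = 0.0286, 0.0395 and 0.0405). No collagen gene was called without PARPi replicate 1 or 2 or PARPi+anti-VEGFA replicate 3, where 15, 0 and 3 of all genes were called. Without PARPi+anti-VEGFA replicate 1, 6 were called, against 216 of all genes. Without PARPi replicate 3 or PARPi+anti-VEGFA replicate 2 or 4 there was 1 call, against 25, 34 and 10 of all genes.

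Anti-VEGFA added to PARPi+ICB called 0 of 38 by edgeR, against 0% of all genes, and 0 by DESeq2, against 12 of all genes. At an unadjusted p under 0.05, 2 were higher (Col14a1 and Col28a1) and 0 lower, against 369 and 376 of all 18144 genes. ICB added to PARPi+anti-VEGFA called 0 by edgeR, against 0.0882% of all genes, and 2 by DESeq2, against 251 of all genes. At an unadjusted p under 0.05, 4 were higher and 6 lower, against 1120 and 1142 of all genes. The nearest to a call was Col6a5, higher by 2.29 ± 0.47 on the log2 scale (adjusted p = 0.0696, edgeR), and Col15a1 had -0.34 ± 0.13 (adjusted p = 0.29). The interaction of PARPi and ICB called 0 of 38 by edgeR. At an unadjusted p under 0.05 it had 6 higher and 2 lower, against 460 and 486 of all genes. The interaction of ICB and anti-VEGFA under PARPi called 0, with 2 higher and 7 lower at that limit, against 596 and 592. DESeq2 called 0 in both, against 11 and 17 of all genes, and both called 0% of all genes by edgeR.

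The genes that make, join, bind and cut collagen were followed in the same fit. In these comparisons, PARPi+ICB, PARPi+anti-VEGFA and the full combination against control, 9.58%, 9.99% and 12.6% of all genes were called higher and 6.52%, 7.8% and 11.5% lower, and the counts of each list stand beside those shares. Among 26 tested genes of collagen synthesis, PARPi+ICB called 1 higher and 3 lower, PARPi+anti-VEGFA 1 and 2, and the full combination 3 and 5. The higher calls were near or under the share of all genes. The prolyl 3-hydroxylases P3h2 (-0.77 ± 0.17, -0.79 ± 0.15 and -0.95 ± 0.15) and P3h1 (-0.32 ± 0.07, -0.28 ± 0.07 and -0.26 ± 0.07) fell in all 3. Tll1, a protease that trims procollagen, was higher with PARPi+anti-VEGFA (1.92 ± 0.52) and in the full combination (2.27 ± 0.51).

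Of 5 crosslinking enzymes, 3 rose in each combination and 1, Loxl2, fell in the full combination. Lox, a lysyl oxidase, rose by 1.01 ± 0.17, 1.02 ± 0.16 and 0.87 ± 0.16, and Loxl1 by 0.90 ± 0.12, 0.73 ± 0.11 and 0.95 ± 0.11. With ICB alone 2 of the 5 were called higher, and with PARPi 0.

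Of 9 collagen receptors tested, 1 rose in each combination and 2, 2 and 4 fell, so the higher calls were about the share of all genes. Mrc2, which takes up cleaved collagen, rose by 0.73 ± 0.11, 0.65 ± 0.10 and 0.77 ± 0.10. Itga1, a subunit of a collagen-binding integrin, fell by 0.71 ± 0.10, 0.48 ± 0.09 and 0.64 ± 0.09.

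Of 6 collagen-degrading proteases, 3 rose in each combination and 1, Mmp13, fell in the full combination. Mmp2, a gelatinase, rose by 0.71 ± 0.11, 0.63 ± 0.10 and 0.88 ± 0.10, and Ctsk, a collagen-cutting cathepsin, by 0.36 ± 0.09, 0.53 ± 0.09 and 0.82 ± 0.09. Of 15 other basement membrane proteins, 1, 2 and 1 rose and 3, 2 and 4 fell, and the higher calls were again near or under the share of all genes. The laminin chain Lama1 rose by 1.50 ± 0.20, 1.48 ± 0.19 and 1.33 ± 0.19, while Lama3 fell by 0.61 ± 0.08, 0.66 ± 0.08 and 0.69 ± 0.08. All values in these lists are log2 fold changes with standard errors, called by edgeR over all genes.

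Markers of the cells that could carry these transcripts moved in the same comparisons, and their counts stand beside the same shares of all genes (9.58%, 9.99% and 12.6% higher, and 6.52%, 7.8% and 11.5% lower). Fibroblast markers (8 genes) summed to between 789 and 823 CPM in controls. In the combinations, in the order used above, they summed to between 954 and 1126, 885 and 1204, and 1030.0 and 1296 CPM, and 3, 5 and 6 of 8 were called higher and 1, Pdpn, lower. Pericyte markers (8 genes) summed to between 404 and 511 CPM in controls and to between 235 and 292, 233 and 374, and 227 and 361 CPM, with 6, 5 and 7 of 8 lower and 0 higher. Of 8 endothelial markers 1, Esam, was lower in each combination, as 1 fibroblast marker was, which is near the share of all genes in the full combination. Of 8 ID8 epithelial and mesothelial markers 5 were lower in each, and Lrrn4 was higher in the full combination. Adipocyte markers were higher for 2, 4 and 4 of 6 tested, and macrophage markers for 6, 5 and 6 of 6. No smooth or skeletal muscle marker was called in the combinations. The part of these cell types in the collagen results was not tested.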

How the data were processed

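Per the submitters' processing notes, reads were processed with STAR and HTSeq on GRCm38, and versions, strand setting and annotation are not given in the sources used here. The authors deposited counts per gene for all 20 libraries and a table of log2(RPKM + 1). The deposited log2 RPKM values divide by the whole gene span: for 99.75% of 12460 genes with at least 20 counts in every library, counts and RPKM fitted 1 length factor within 5%. So levels between genes were taken from the counts as CPM per kb of GENCODE M21 exons, not from RPKM as first planned, and RPKM was an alternative.

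Counts were filtered with filterByExpr (minimum count 10, minimum total 15), which left out at most 0.0518% of a library, scaled by TMM (0.958 to 1.03) and fitted in edgeR 4.0.16 (R 4.3.3) with 1 coefficient per group over all 20 libraries (common biological coefficient of variation 0.208). CPM use effective library sizes. The fit was also run on simulated counts, with changes larger than most of those called here. That run does not measure how well smaller changes are found. Alternatives were DESeq2 1.42.0 size factors and test, no filter, a replicate block, pairs of groups alone, limma 3.58.1 on log2(RPKM + 1) or log2(RPKM + 0.1), a minimum mean RPKM of 0.5, each library left out, the 4 libraries with acinar RNA left out, and, chosen after seeing the data, the library-quality RNAs as covariate.

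The members were taken by symbol alone, but the rule, the classes and the lists were written with earlier results of these data known. Values in every sample are given for the 12 called members of smallest p, the member of highest RPKM of each class and the chains of collagens I, III, IV and VI, and in each further list up to 4 genes of smallest p may be named. Replicate numbers were not used to pair libraries in the main fit, since deviations of same-numbered libraries correlated only at -0.13 to 0.17. Between the full combination and PARPi+ICB all 3 such pairs were positive, at 0.04 to 0.17. Each of these full combination libraries matched its own number best.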

Additional observations from a re-analysis of the deposited data

Results flagged for a closer look

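Of 76 groups of 4 libraries 3 held a collagen gene with 1 library set far from the other 3, where chance gives about 1 in 20 groups. The measure was the gap to the nearest library over the group's range, set against Dixon's critical value for 4 samples. Col12a1, a FACIT, was lowest in PARPi+anti-VEGFA replicate 3 at 86.9 CPM, with the others at 127.6 to 134.8 (ratio 0.850). Col11a1, a minor fibrillar chain, was highest in PARPi+anti-VEGFA replicate 2 at 1.32 CPM, with the others at 0.151 to 0.328 (ratio 0.849). Col14a1 was highest in full combination replicate 2 at 49.4 CPM, with the others at 33.0 to 33.8 (ratio 0.953). That library also had the most acinar RNA, at a mean of 9.11 log2 CPM, and its part in the value was not tested.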

How the results depend on the processing

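The 9 comparisons called 62 pairs of a collagen gene and a comparison. Under the alternatives listed at the start 31 of the 62 were always called, and 17 also with the library-quality RNAs as covariate, which was chosen after seeing the data. No value changed sign. Of 952 values under them 152 lost the call. The ICB count of 5 became 3 with the groups compared alone, 3 with limma on log2(RPKM + 1), with or without the minimum mean of 0.5, 0 with the covariate, and 2 to 3 without any one library. Over all genes the ICB comparison called 400 in the main fit and 272 with the groups alone. It called 208 and 233 with limma, with and without the minimum, and 0 with the covariate. PARPi+ICB (15) gave 7 with the covariate and 9 to 15 without any one library. PARPi+anti-VEGFA (18) gave 0 with the covariate and 14 to 19. The full combination (18) gave 11 to 17 without any one library. Over all genes, the fits without any one library called 1349 to 2674, 1968 to 3214 and 2971 to 4265 in these 3 comparisons. ICB added to PARPi (3) gave 5 without the filter, 10 with the DESeq2 Wald test, 7 without the libraries with acinar RNA and 1 to 5 without any one library. Over all genes the first 3 of these settings called 307, 812 and 302, against 229 in the main fit. Anti-VEGFA added to PARPi (3) gave 5 without the filter, 9 with DESeq2, 0 with each of the 3 limma fits, 5 without the libraries with acinar RNA, 0 with the covariate and 0 to 6 without any one library. Over all genes it called 104 in the main fit, 151 without the filter, 649 with DESeq2 and 9 to 14 with limma. Without the libraries with acinar RNA it called 86, and with the covariate 1. ICB added to PARPi+anti-VEGFA (0) gave 1 without the filter, 1 with the replicate block, 2 with DESeq2, 1 with limma at the minimum mean of 0.5 and 0 to 0 without any one library. Over all genes the first 4 of these settings called 63, 54, 251 and 17, against 16 in the main fit. The test over all 6 groups (18) gave 13 to 22 without any one library, against 2693 to 3875 of all genes. It could not be run on a pair of groups alone. The cause of these differences was not tested, except that the limma fits at the minimum mean tested fewer genes.

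With the replicate block the counts were 0 for PARPi, 4 for ICB, 15, 17 and 18 for the combinations, 3 and 3 for ICB and anti-VEGFA added to PARPi, 0 for anti-VEGFA added to PARPi+ICB and 16 over all groups. Over all genes they were 20, 417, 2865, 2906, 4142, 277, 93, 0 and 3214, in the same order. No comparison had every same-numbered pair of libraries correlated above 0.1, so the main fit did not treat them as paired. On the deposited RPKM the class shares were 62.2% fibrillar, 6.90% collagen IV, 22.6% collagen VI, 2.17% FACIT and 2.41% other types, since the span includes introns, and Col4a1 ranked 6 instead of 2. Groups of 3 or 4 libraries and a few reads limit the scarce chains, and a p that misses the threshold does not show equal levels.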

Other observations

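The 3 libraries of ICB alone differed more from each other than the controls did in Col3a1, Col1a1 and Col6a1, but not in Col6a3. Col3a1 was at 1264, 967 and 1751 CPM and Col6a1 at 296, 238 and 398 CPM, with replicate 2 lowest and replicate 3 highest in both, while Col4a1 was at 757, 777 and 798 CPM. The SD of log2 CPM within ICB was 0.43 for Col3a1, 0.31 for Col1a1 and 0.37 for Col6a1. Within the controls it was 0.06, 0.23 and 0.15. For Col6a3 it was 0.22 within ICB and 0.25 within the controls, and for Col4a1 0.04 and 0.05. ICB replicate 3 is also one of the 4 libraries with acinar RNA, and its part in this spread was not tested.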
